A study of Homo sapiens with 6 samples.

Results

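The FOS and JUN subunits of the transcription factor AP-1 were examined in DU145, an established human prostate cancer cell line. The members were the 7 rows of the expression table whose gene symbol is FOS, FOSB, FOSL1, FOSL2, JUN, JUNB or JUND, out of 19727 genes. The lentivirus-circCSPP1 group (3 libraries) carries a vector for overexpression of the circular RNA circCSPP1, and the lentivirus-NC group (3 libraries) carries the control vector in otherwise normal DU145 cells. Per the study's methods, cells that received a lentivirus were selected with puromycin to make stable lines. The sources used here do not say whether the 3 libraries of a group came from separate transductions or from separate cultures of 1 line, so the tests measure only the spread between these libraries. Each group therefore differs from the other by its vector and by the selected cell population together, and these cannot be told apart.

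AP-1 is a dimer of basic leucine zipper proteins. FOS proteins do not pair stably with each other and need a JUN partner, whereas JUN proteins pair with each other or with a FOS protein, and the dimers bind the DNA element TGAGTCA or its relative TGACGTCA. FOS, FOSB and JUN are classical immediate early genes that growth factors and stress switch on for a short time, while FOSL1 (FRA-1) follows later and stays high where the ERK kinases stay active, and FOSL1 is often abundant in invasive carcinoma cells. The comparison addresses how the RNA of these subunits differs when circCSPP1 is overexpressed.

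FOSL1 and JUN rose with lentivirus-circCSPP1, FOSL1 by 2.48-fold and JUN by 2.04-fold in mean FPKM, the fragment count scaled to transcript length and library size. FOS and JUND were also higher in all 3 lentivirus-circCSPP1 libraries than in all 3 lentivirus-NC libraries, but neither passed an adjusted p of 0.05 in the main fit. FOS passed only in a fit with the replicate number as a block (adjusted p = 0.043, limma). The series describes the samples as paired, but whether the numbers mark pairs could not be settled. JUNB and FOSL2 overlapped between the groups, and FOSB was near 0 in every library. In bulk RNA, more RNA per cell and more cells that hold the transcript cannot be told apart.

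In the GENCODE release 29 annotation of GRCh38, the build named hg38 in the submitters' processing notes, the genes of the 2 families differ in structure. The longest protein-coding transcripts of JUN, JUNB and JUND each have 1 exon, and those of FOS, FOSB, FOSL1 and FOSL2 each have 4 exons. FOSL1 lies on chromosome 11 from 65892049 to 65900573 on the minus strand, and JUN on chromosome 1 from 58780788 to 58784327 on the minus strand. FOS lies on chromosome 14 from 75278774 to 75282230 and FOSL2 on chromosome 2 from 28392448 to 28417312, both on the plus strand. The other members lie on chromosome 19, JUNB from 12791496 to 12793315 and FOSB from 45467995 to 45475179 on the plus strand, and JUND from 18279760 to 18281622 on the minus strand.

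Promoter sequence, 250 bases before to 50 bases after the RefSeq gene start on GRCh38.p14, was matched for 6 members: FOS, FOSB, FOSL2, JUN, JUNB and JUND. FOSL1 was not matched. RefSeq and GENCODE starts differ for some genes. By the GENCODE spans above, the windows printed below for JUN and FOSL2 lie inside the gene, and that of FOS overlaps its start. The windows below are shown because AP-1 and CREB family proteins are known to act on the promoters of these same genes. Each is a stretch of 30 bases from 5′ to 3′ on the gene's strand, and the capitals mark the matched letters:
JUN, chr1:58784096-58784125: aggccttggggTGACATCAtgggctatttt
FOSL2, chr2:28392851-28392880: tgccattgtagTGACTCAtctcgggcagag
JUND, chr19:18281804-18281833: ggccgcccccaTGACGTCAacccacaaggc
FOS, chr14:75278753-75278782: ggttgagcccgTGACGtttacactcattca
JUNB, chr19:12791338-12791367: cttcctgacagTGACGcgagccgcctcctc
FOSB, chr19:45467925-45467954: caaggggcgggTGACGtaagcaggggggcg

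The consensus AP-1 site, TGAGTCA on either strand, was found in 1 of the 6 promoters, that of FOSL2 at position 5 from the start, and in 4.95% of the 35116 promoters in the table. The cyclic AMP response element TGACGTCA was found in that of JUND alone, at position -200, against 1.85% of all promoters. TGACATCA, the variant through which JUN is known to act on its own gene, was found in that of JUN alone, at position -67, against 2.61%. The core TGACG, which is also part of TGACGTCA, was found on either strand in all 6, against 24.6% of all promoters. The motifs were chosen with the sequences in view, and a match in these letters is a description of the window only. Of the genes with matched promoters, JUN was the single one that passed an adjusted p of 0.05 in the main fit.

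Because the study placed circCSPP1 upstream of the microRNA miR-520h, the 3′ UTRs of the members were searched for matches to its seed. The mature sequence, from RefSeq (chr19:53742566-53742587, plus strand), has its seed, bases 2 to 8, in capitals. The matches found in the longest protein-coding transcripts of FOSL1 and FOSL2 are given with the matching bases in capitals, on the gene's strand:
hsa-miR-520h: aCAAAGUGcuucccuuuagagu
FOSL1, chr11:65892588-65892617: ggcagcccagagACTTTGtagatccttaga
FOSL2, first match, chr2:28414681-28414710: cccttatacccCACTTTGtgcagcaaagat
FOSL2, second match, chr2:28416722-28416751: agaaaatatttgACTTTGtgtaaagagtag

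The 3′ UTR of FOSL1, of 666 nt, held 1 match of 6 bases (ACTTTG), and the 3′ UTR of FOSL2, of 4864 nt, held 2, of which 1 extends to the 7 bases CACTTTG. The 3′ UTR of FOSB held 1 match of 6 bases, and those of FOS, JUN, JUNB and JUND held none, against 42.6% of 19038 genes with at least 1. Among the members with a match, the log2 fold change was 1.29 for FOSL1 and 0.018 for FOSL2, and FOSB was too low to be tested. Among those without a match in this transcript, it was 0.99 for JUN, 0.79 for JUND, 0.62 for FOS and 0.16 for JUNB. Whether miR-520h had a part in these differences was not tested. Binding of miR-520h was not measured.

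The libraries were paired-end and made from polyadenylated RNA, and the depth read from the steps between low FPKM values was 28900000 to 36600000 fragments per library, with overlapping groups. The summed FPKM per library was 589142 to 603390. CSPP1, the host gene of circCSPP1, measured 9.11, 10.1 and 9.44 FPKM in lentivirus-NC and 14.5, 22.8 and 21.4 FPKM in lentivirus-circCSPP1 (log2 fold change 0.94, adjusted p = 0.016, limma), but a gene value from polyadenylated RNA does not separate the circular RNA, the vector and the linear transcript. Of the 5 epithelial markers listed for DU145, KRT8, KRT18, EPCAM and CDH1 were detected in all libraries and all 4 were lower with lentivirus-circCSPP1 (adjusted p from 0.00056 to 0.017, limma), CDH1 at 10.9 ± 0.953 against 3.01 ± 0.507 FPKM (SD, n = 3 in each group), and KRT5 stayed under 1 FPKM. The adjusted p of CSPP1 and of EPCAM was each over 0.05 in 5 of the 17 alternatives (up to 0.077 and 0.084), among them leaving out any 1 lentivirus-NC library or lentivirus-circCSPP1 replicate 3. The 20 most abundant genes took 14.9% to 15.2% of summed FPKM in lentivirus-NC and at most 12.1% in lentivirus-circCSPP1. The part of these markers and of this share in the differences among AP-1 subunits was not tested. KLK2, KLK3 and TMPRSS2, genes of prostate luminal cells, were at or near 0, which is known of DU145. Among 8 markers of other cell types, PTPRC, PECAM1, VWF, COL1A2, ALB and NEUROD1 were at or near 0, ACTA2 measured 1.84 to 2.76 FPKM, and COL1A1 fell from 3.26 ± 0.741 to 1.15 ± 0.189 FPKM (SD, n = 3; adjusted p = 0.010, limma), a call that was lost in 2 alternatives (adjusted p up to 0.052), 1 of them without lentivirus-NC replicate 1.

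Differences were tested with limma on log2(FPKM + 1), a scale that understates the change of low genes, over the 12322 genes that averaged 1 FPKM or more across the 6 libraries, with p-values adjusted over all of them. All members but FOSB passed that filter, so 6 of the 7 were tested. Of these, 2 were higher at an adjusted p under 0.05, where 4.69% of all tested genes were. In 4 of the 6 the lentivirus-circCSPP1 values lay entirely above the lentivirus-NC values, where 16.0% of all tested genes did so and 36.4% separated in either direction. All 6 differences were above 0, compared with 46.0% of all tested genes, but the members were chosen with earlier results of these data known. The count includes JUNB at 0.16 and FOSL2 at 0.018, neither called, and FOSL2 fell to -0.43 when 1 library was left out. The smallest p that an exact permutation test can reach with 3 libraries against 3 is 0.10.

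**Figure D1:**
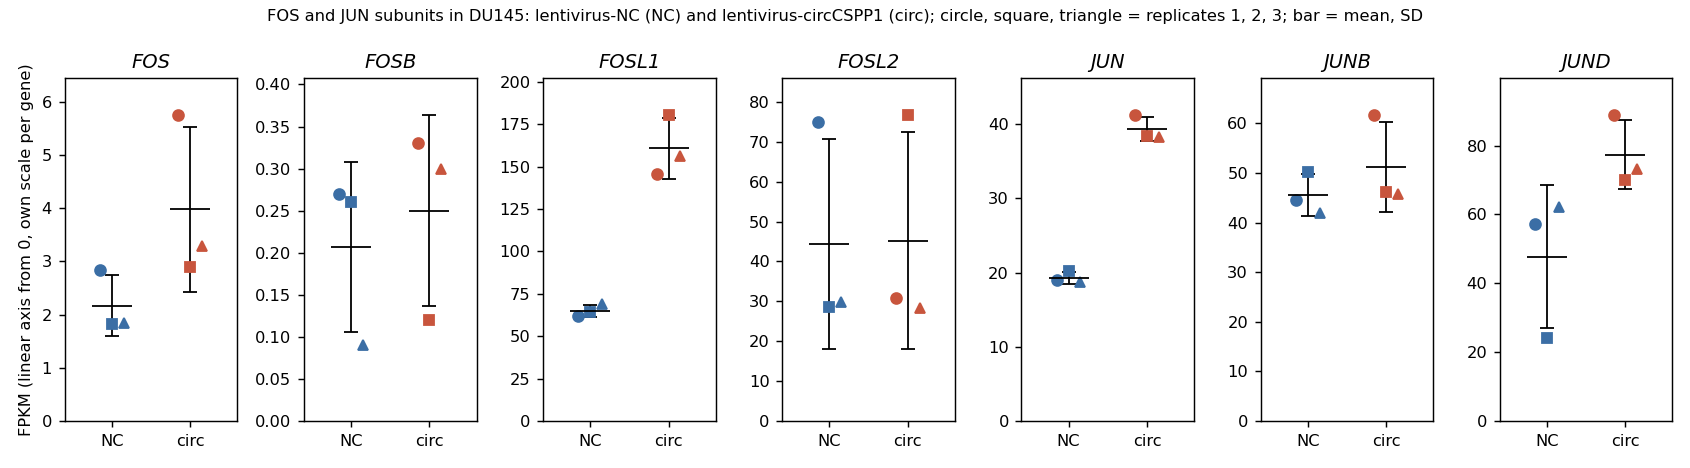
FPKM of the 7 FOS and JUN subunits in each library, on a linear axis from 0 with its own scale for each gene; NC is lentivirus-NC and circ is lentivirus-circCSPP1, symbols mark replicates 1, 2 and 3, and bars give the mean and SD (n = 3). FOSL1 and JUN separate widely (62.0 to 68.8 against 145.51 to 180.45 FPKM for FOSL1), whereas FOSL2 has 1 high library in each group, at 74.9 and 76.7 FPKM.

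Within the FOS family, FOSL1 was the most abundant subunit in 5 of the 6 libraries. FOSL1 lacks the transactivation domain found in FOS and FOSB and works through its JUN partner and other factors. In replicates 1, 2 and 3, its level was 62.0, 64.1 and 68.8 FPKM with lentivirus-NC and 145.51, 180.45 and 156.54 FPKM with lentivirus-circCSPP1. The groups were far apart, and the spread was wider in lentivirus-circCSPP1. The means were 65.0 ± 3.47 and 160.8 ± 17.9 FPKM (SD, n = 3), which differ by 1.29 on the log2 scale with a standard error of 0.10 and a 95% confidence interval from 1.06 to 1.52 (adjusted p = 0.0013, limma; exact permutation p = 0.10, the smallest possible). Of the 12322 tested genes, FOSL1 ranked 23rd by the size of the rise on the log2(FPKM + 1) scale, which understates the change of low genes. The 17 alternatives were other processing settings and fits that leave out 1 library. Over these the log2 fold change of FOSL1 lay between 1.21 and 1.36, and the adjusted p stayed under 0.05 in all 17.

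FOSL2 (FRA-2), the closest relative of FOSL1, showed no common direction. It measured 74.9, 28.7 and 29.9 FPKM in lentivirus-NC and 30.8, 76.7 and 28.2 FPKM in lentivirus-circCSPP1. The values therefore fell at 2 levels, and each group had 1 library at the high level, replicate 1 of lentivirus-NC and replicate 2 of lentivirus-circCSPP1. The log2 fold change was 0.018 with a 95% confidence interval from -1.08 to 1.11 (adjusted p = 0.985, limma), an interval that is wide on both sides of 0. The difference was 0.46 without lentivirus-NC replicate 1 and -0.43 without lentivirus-circCSPP1 replicate 2, both with an adjusted p over 0.05. A range as wide as that of FOSL2 within lentivirus-NC, 1.35 on the log2 scale, was reached by 0.576% of tested genes, and 1.01% had a range as wide within lentivirus-circCSPP1. GENCODE lists 4 transcripts of FOSL2, the longest of 6708 nt, and how the deposited values assign fragments to them was not given in the sources used here. What sets the 2 levels was not tested.

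FOS, the founding member of the family and a strong activator, was low. It measured 2.84, 1.83 and 1.84 FPKM in lentivirus-NC and 5.75, 2.90 and 3.28 FPKM in lentivirus-circCSPP1. On its longest transcript of 2158 nt these values correspond to about 114 to 401 fragments per library. The groups did not overlap, but the highest lentivirus-NC library and the lowest lentivirus-circCSPP1 library lay next to each other. The means were 2.17 ± 0.580 and 3.98 ± 1.55 FPKM (SD, n = 3), and the log2 fold change was 0.62 with a standard error of 0.23 (95% confidence interval 0.086 to 1.16, adjusted p = 0.13, limma). Without lentivirus-circCSPP1 replicate 1, the library with the highest FOS value, the log2 fold change was 0.38 (adjusted p = 0.13, limma). Over 16 alternatives it ran from 0.38 to 0.84. The adjusted p was under 0.05 in 1 of these, with the replicate number as a block (0.043, limma).

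FOSB, an immediate early gene with a role much like that of FOS, measured 0.27, 0.26 and 0.09 FPKM in lentivirus-NC and 0.33, 0.12 and 0.30 FPKM in lentivirus-circCSPP1. These values correspond to about 12 to 40 fragments per library on a transcript of 3775 nt. The groups overlapped and no difference was detectable at this depth. FOSB was not among the genes tested, and with no filter its adjusted p was 0.78 (limma).

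In the JUN family, JUN was the member with the clearest change. JUN is the strongest transactivator among the JUN proteins and the main nuclear substrate of the JNK kinases. It measured 19.0, 20.2 and 18.7 FPKM in lentivirus-NC and 41.2, 38.4 and 38.3 FPKM in lentivirus-circCSPP1. The replicates lay close together in both groups, and every lentivirus-circCSPP1 library lay well above every lentivirus-NC library. The means were 19.3 ± 0.773 and 39.3 ± 1.65 FPKM (SD, n = 3), and the log2 fold change was 0.99 with a standard error of 0.088 (95% confidence interval 0.79 to 1.20, adjusted p = 0.0019, limma). The log2 fold change lay between 0.96 and 1.03 over the 17 alternatives, and the adjusted p stayed under 0.05 in all 17. JUN ranked 78th among tested genes by the size of the rise on the same log2(FPKM + 1) scale.

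JUNB, a weaker activator that can oppose JUN, measured 44.5, 50.2 and 41.9 FPKM in lentivirus-NC and 61.7, 46.2 and 45.7 FPKM in lentivirus-circCSPP1. Of the latter, replicates 2 and 3 lay within the range of lentivirus-NC, and replicate 1 lay above it. The log2 fold change was 0.16 with a 95% confidence interval from -0.16 to 0.48 (adjusted p = 0.50, limma). Without lentivirus-circCSPP1 replicate 1 it was 0.018.

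JUND, which many cell types express without stimulation, measured 57.2, 23.96 and 62.1 FPKM in lentivirus-NC and 88.9, 70.1 and 73.2 FPKM in lentivirus-circCSPP1. The groups did not overlap, and lentivirus-NC replicate 2 stood far below the other two of its group. The log2 fold change was 0.79 with a standard error of 0.33 (95% confidence interval 0.019 to 1.56, adjusted p = 0.17, limma). Without lentivirus-NC replicate 2 the log2 fold change was 0.36 (adjusted p = 0.21). A range as wide as that of JUND within lentivirus-NC, 1.34 on the log2 scale, was reached by 0.601% of tested genes. Its transcript has the highest GC content among the members, 69.7%, and a correction of each library for GC content and length left the adjusted p at 0.12.

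**Figure D2:**
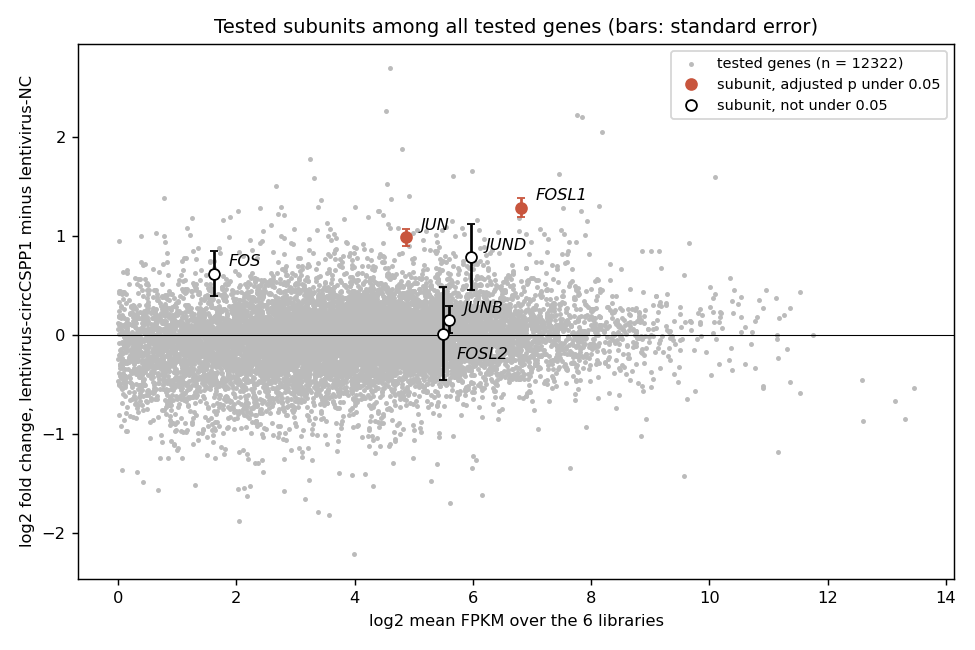
Log2 fold change (lentivirus-circCSPP1 minus lentivirus-NC, log2(FPKM + 1) scale) against log2 mean FPKM for the 12322 tested genes in grey, with the 6 tested subunits marked and standard errors as bars. FOSL1 (1.29) and JUN (0.99) lie above most genes of like level, and the bars of FOSL2 and JUND, 0.47 and 0.33, are the widest among the subunits.

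With all libraries kept, the other processing settings moved the log2 fold change of FOSL2 only from 0.0064 to 0.060. That of JUND ran from 0.76 to 0.83, and that of FOS moved most, from 0.62 to 0.84. The fits that leave out 1 library reflect the spread of the replicates. In these, FOSL1 and JUN moved little, FOS and JUNB kept their sign, and FOSL2 and JUND moved most.

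**Figure D3:**
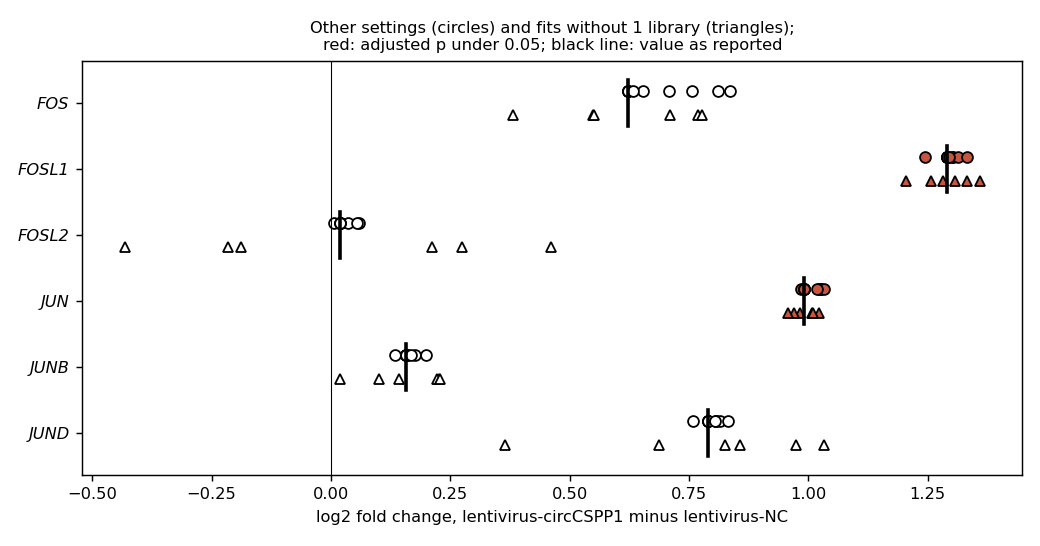
Log2 fold change of the 6 tested subunits under the other processing settings (circles) and in fits that leave out 1 library (triangles), with red for an adjusted p under 0.05 and a black line for the value as reported. FOSL1 and JUN stay within 1.21 to 1.36 and 0.96 to 1.03, whereas FOSL2 runs from -0.43 to 0.46 and JUND from 0.36 to 1.03.

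FPKM is scaled by transcript length, so the subunits can be ranked by level within a library. In lentivirus-NC the order by mean was FOSL1 (65.0 FPKM), JUND (47.7), JUNB (45.5), FOSL2 (44.5), JUN (19.3), FOS (2.17) and FOSB (0.207). The ranges of JUND, JUNB and FOSL2 overlapped with each other, and those of FOSL1 and JUND met near 62 FPKM. The range of FOSL2 spanned that of FOSL1, through its single high library at 74.9 FPKM. These 4 subunits thus did not all differ beyond their spread, whereas JUN, FOS and FOSB each lay below all libraries of the subunit ranked before them. In lentivirus-circCSPP1 the order by mean was the same, at 160.8, 77.4, 51.2, 45.2, 39.3, 3.98 and 0.250 FPKM. There FOSL1 stood above all libraries of every other subunit, JUND stood above all libraries of JUNB, and JUNB above all libraries of JUN. FOSL2, with its single high library, spanned the ranges of JUNB and JUN and reached into that of JUND.

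The summed FPKM of the FOS family was 140.0, 94.9 and 100.6 in lentivirus-NC and 182.4, 260.2 and 188.3 in lentivirus-circCSPP1. The summed FPKM of the JUN family was 120.7, 94.3 and 122.7 in lentivirus-NC and 191.8, 154.7 and 157.3 in lentivirus-circCSPP1. Both sums were thus higher in every lentivirus-circCSPP1 library than in any lentivirus-NC library. Not every member shared this. FOSL2, FOSB and JUNB overlapped between the groups, and FOS and JUND, which did not overlap, were not called. FOSL1 made up 44.3%, 67.6% and 68.4% of the FOS family sum in lentivirus-NC and 79.8%, 69.4% and 83.1% in lentivirus-circCSPP1. The lowest of these shares belongs to the lentivirus-NC library with the high FOSL2 value. FOS and FOSB together stayed a small part, FOS at 1.11% to 3.15% and FOSB at no more than 0.274%. The ratio of JUN to JUNB was 0.428, 0.402 and 0.446 in lentivirus-NC and 0.669, 0.832 and 0.838 in lentivirus-circCSPP1. RNA sums say nothing about protein or about which dimers formed.

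**Figure D4:**
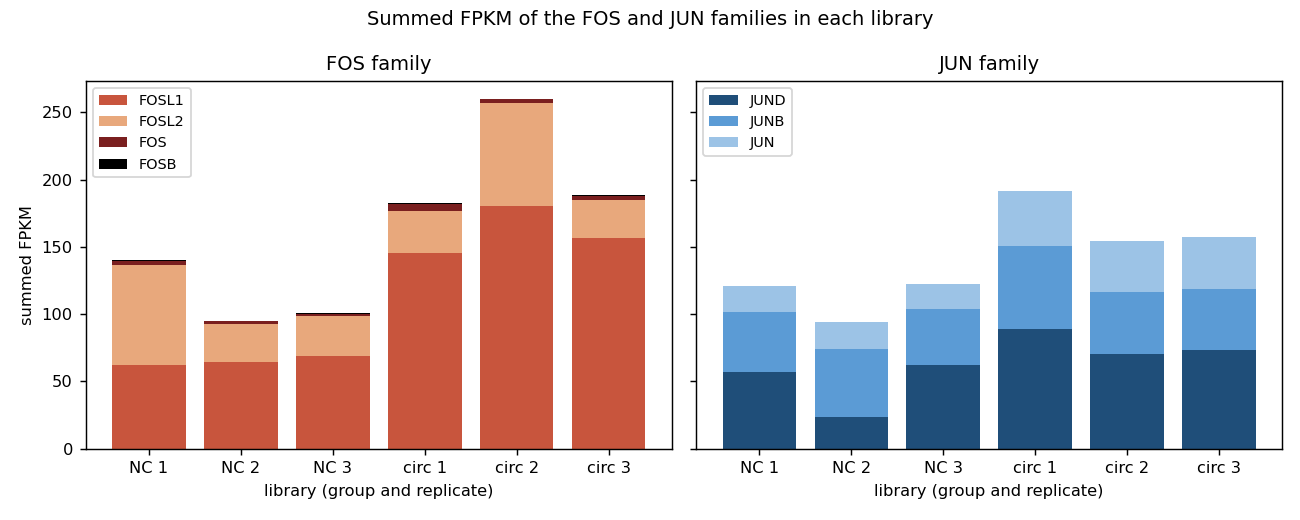
Stacked FPKM of the FOS family (left) and the JUN family (right) in each of the 6 libraries; NC is lentivirus-NC and circ is lentivirus-circCSPP1, and the height is the summed FPKM from 0. The FOS family sum ran from 94.9 to 140.0 in lentivirus-NC and from 182.4 to 260.2 in lentivirus-circCSPP1, with FOSL1 as its largest part in all libraries but lentivirus-NC replicate 1.

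Genes that act with the subunits were taken from 5 lists, which were written with earlier results of these data known, so their counts and medians are descriptions. Over all tested genes, 11.4% were called in either direction. Other proteins that can dimerise with FOS or JUN numbered 14, of which 9 were tested and 3 were called, all higher (median log2 fold change of the 9, 0.50, against -0.03 over all tested genes, of which 4.69% were called higher). MAFG, a small MAF protein that also partners the antioxidant factor NRF2, rose from 55.8 ± 7.02 to 115.8 ± 15.4 FPKM (SD, n = 3), with a log2 fold change of 1.04 (adjusted p = 0.0053, limma), with an adjusted p under 0.05 in all 17 alternatives. ATF3, a stress-induced repressor, rose from 8.22 ± 2.28 to 14.4 ± 1.08 FPKM (SD, n = 3), with a log2 fold change of 0.77 (adjusted p = 0.045, limma), and JDP2, a JUN-binding repressor, rose by a log2 fold change of 0.44 (adjusted p = 0.029, limma). The adjusted p of ATF3 was over 0.05 in 8 of the 17 alternatives and reached 0.15, and that of JDP2 was over 0.05 in 6 and reached 0.14. Leaving out any 1 library except lentivirus-circCSPP1 replicate 1 ended both calls.

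Of the 16 listed kinases and phosphatases that act on AP-1, 15 were tested and 2 were called, both higher (median 0.09). Over all tested genes, 11.4% were called in either direction and 4.69% were called higher. DUSP1, a phosphatase that switches off JNK and p38, rose from 33.3 ± 0.929 to 57.0 ± 8.40 FPKM (SD, n = 3), with a log2 fold change of 0.75 (adjusted p = 0.011, limma). RPS6KA2, a kinase of the RSK family downstream of ERK, rose by a log2 fold change of 0.67 (adjusted p = 0.011, limma). The JNK gene MAPK8 measured 9.04 ± 0.993 and 10.8 ± 1.30 FPKM (SD, n = 3) and was not called. Among 9 transcription factors that act on the FOS and JUN promoters, 8 were tested (median 0.16) and 1 was called, higher, beside the same shares of all tested genes. The called gene was MEF2D, known to bind the JUN promoter, which rose from 51.6 ± 6.11 to 87.5 ± 9.49 FPKM (SD, n = 3), with a log2 fold change of 0.75 (adjusted p = 0.011, limma). The adjusted p of DUSP1 and RPS6KA2 was each over 0.05 in 4 of the 17 alternatives, up to 0.065, and that of MEF2D in 3, up to 0.062. Leaving out lentivirus-NC replicate 1 ended all 3 calls, leaving out lentivirus-NC replicate 2 those of DUSP1 and MEF2D, leaving out lentivirus-NC replicate 3 that of RPS6KA2, and leaving out lentivirus-circCSPP1 replicate 3 those of DUSP1 and RPS6KA2.

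Among 10 genes for the turnover of FOS and JUN mRNA and protein, all 10 were tested and 2 were called, both higher (median 0.18), where 4.69% of all tested genes were called higher. ZFP36L2, which binds AU-rich elements and promotes mRNA decay, rose by 0.40 on the log2 scale (adjusted p = 0.042, limma), and KHSRP, another decay factor, by 0.29 (adjusted p = 0.031, limma). Each of these calls was lost in 7 of the 17 alternatives, among them leaving out any 1 library except lentivirus-circCSPP1 replicate 1, with an adjusted p of up to 0.18 and 0.15. FBXW7, COP1 and DET1, parts of ubiquitin ligases that target JUN, had log2 fold changes of 0.40, 0.072 and 0.43 and were not called (adjusted p = 0.14, 0.72 and 0.13, limma).

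Of 29 genes known as AP-1 targets, 28 had values here, 17 were tested and 6 were called, 5 higher and 1 lower, with a median of 0.13 over the 17. Over all tested genes, 4.69% were called higher and 6.66% lower. HBEGF, a ligand of the EGF receptor, rose from 7.94 ± 0.962 to 17.1 ± 0.938 FPKM (SD, n = 3), with a log2 fold change of 1.02 (adjusted p = 0.0042, limma). AREG, a ligand of the same receptor, rose from 100.2 ± 6.32 to 167.7 ± 7.59 FPKM, and CCND1, which encodes the G1 cyclin D1, rose from 143.7 ± 10.6 to 240.3 ± 14.3 FPKM, each with a log2 fold change of 0.74. The cytokine genes LIF and CXCL8 rose by log2 fold changes of 0.68 and 0.89. The adjusted p of CXCL8 was over 0.05 in 5 of the 17 alternatives, up to 0.096, among them leaving out any 1 lentivirus-NC library or lentivirus-circCSPP1 replicate 3, and those of the other 4 genes that rose stayed under 0.05 in all 17.

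The cytokine gene IL6 went the other way, from 20.7, 23.1 and 13.4 FPKM in lentivirus-NC to 4.67, 3.92 and 5.26 FPKM in lentivirus-circCSPP1 (log2 fold change -1.81, adjusted p = 0.0039, limma). The adjusted p of IL6 stayed under 0.05 in all 17 alternatives. MMP1, the collagenase gene long used as an AP-1 reporter, measured 8.29 ± 0.365 and 6.16 ± 0.813 FPKM (SD, n = 3), with a log2 fold change of -0.38 that was not called, and PLAU, the urokinase gene, measured 737 ± 49.8 and 807 ± 40.8 FPKM (SD, n = 3) and was not called. The listed targets thus moved in both directions while FOSL1 and JUN were higher.

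**Figure D5:**
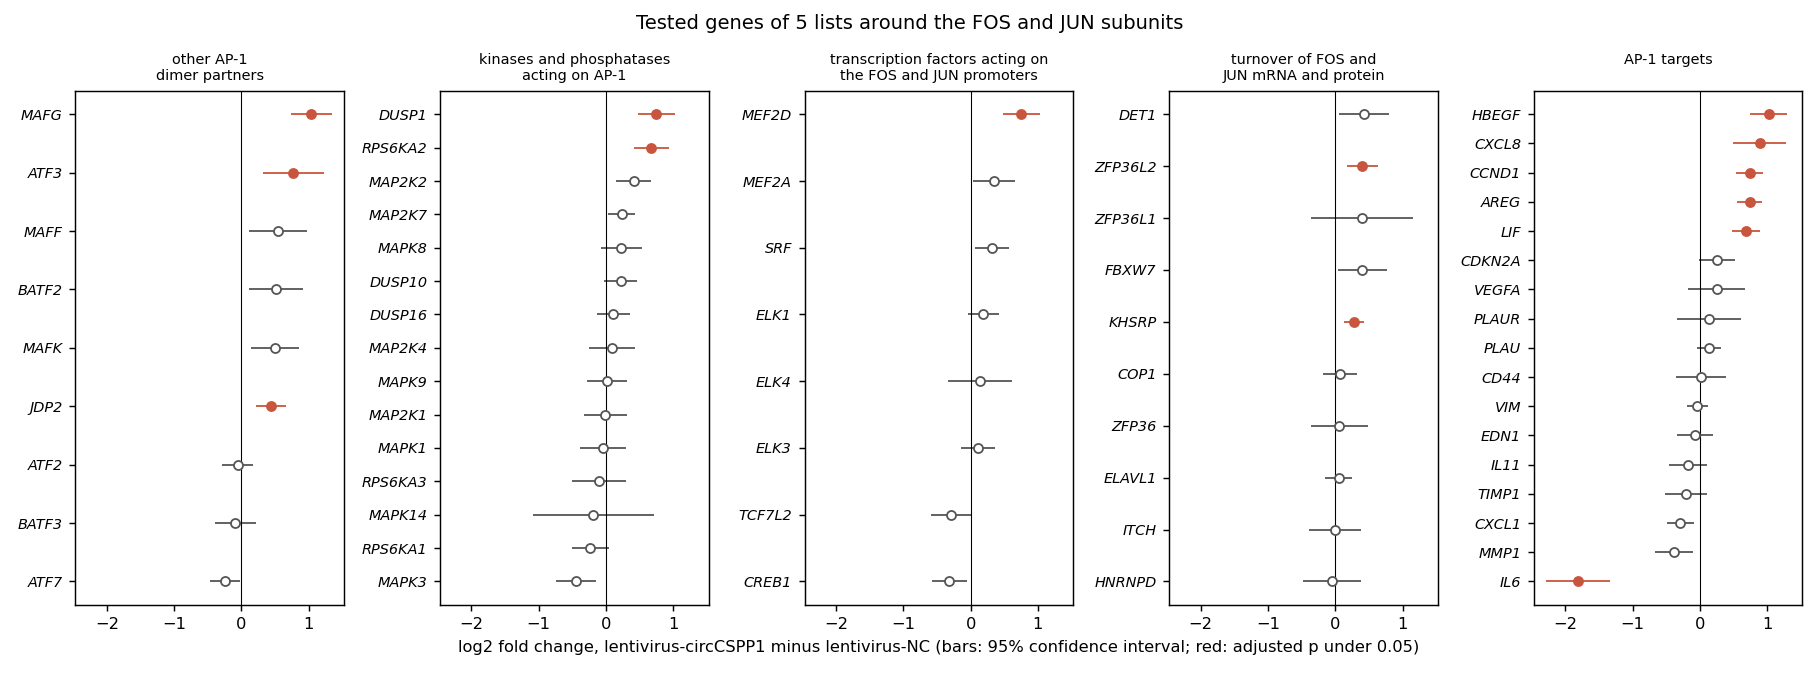
Log2 fold change (lentivirus-circCSPP1 minus lentivirus-NC) of the tested genes of the 5 lists, 1 gene per line, with 95% confidence intervals as bars and genes with an adjusted p under 0.05 in red. All called genes are higher except IL6 (-1.81) among the AP-1 targets.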

How the data were processed

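The authors sequenced polyadenylated RNA and deposited 1 table of FPKM values, rounded to 2 decimals, with 1 row per gene and 1 column per library. The submitters' processing notes name the build hg38; the aligner, the FPKM program, the annotation and any use of strand are not given in the sources used here, so overlapping antisense genes cannot be told apart. Column names, which give group and replicate, tied each column to its sample, and 0 columns were left unused. A count model was not applied, because FPKM are normalized values.

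Values were taken to log2(FPKM + 1), and genes averaging 1 FPKM or more went into a two-sided limma test (limma 3.58.1, R 4.3.3, lmFit and trended eBayes, without covariates) and Benjamini-Hochberg adjustment; "called" means an adjusted p under 0.05. The methods of the paper name only a general two-sample test, which was run as the alternative without moderation. For its pathway analysis of these libraries the paper also set a minimum log2 fold change, which was not applied here. The values of FOSL1 (1.29) and JUN (0.99) were under that minimum. Depth was estimated in genes with a single GENCODE 29 transcript shorter than 800 nt, from values of up to 8 fragments. Of 62 to 77 values per library, 92.2% to 98.6% lay within 0.15 of a step of whole multiples. By chance 30% would for a step fixed beforehand. The step was chosen as the best fit to these same values, so 30% is not its chance level. Fragments per gene assume the longest transcript. The fit was tested on simulated data.

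The members and lists were chosen with earlier results of these data known. Of the listed genes, 1 AP-1 target and 2 sample markers are not reported here, for a reason that did not depend on their values but after these were known. Counts and medians of those lists are over the remaining genes, and the other AP-1 lists are whole. Genes named were the members, the called genes of the lists (the 6 largest in each) and, for each tested member, the gene with the highest correlation; MAPK8, FBXW7, COP1, DET1, MMP1 and PLAU were named outside this rule, and CSPP1 and the marker genes were named as checks of the samples. The median shift of all genes was under 0.1 in every scaling. Replicate numbers were shared between groups in the labels, and the series describes the samples as paired. Deviations of same-numbered libraries correlated at 0.073, 0.0065 and 0.057, and those of differently numbered libraries at -0.067 to 0.036. Values this low neither establish nor exclude pairs. The main fit did not treat the numbers as pairs, and a fit with the number as a block was run as an alternative. Figures were drawn with matplotlib 3.10.9.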

Additional observations from a re-analysis of the deposited data

How the results depend on the processing

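FOSL1 and JUN kept an adjusted p under 0.05 (limma) under all 17 alternatives, and the number of called subunits was 2 or 3. With the replicate number as a block, FOS passed (log2 fold change 0.62, adjusted p = 0.043), 923 of all tested genes were called instead of 1399, and the dimer partner and turnover lists had 1 and 0 called genes. Not every library correlated best with its own number. Over all tested genes, 834 were called without moderation and 3502 after the loess correction for GC content and length. Leaving out 1 library gave 300 (without lentivirus-NC replicate 1), 317 (without lentivirus-NC replicate 2), 407 (without lentivirus-NC replicate 3), 450 (without lentivirus-circCSPP1 replicate 3) and 3512 (without lentivirus-circCSPP1 replicate 1), a range of 300 to 3512. The mean correlation of lentivirus-circCSPP1 replicate 1 with its own group was the lowest, 0.974. It was 0.980 and 0.984 for replicates 2 and 3 of that group and 0.991 for each lentivirus-NC library. All members but FOSL1 and FOSL2 had their highest value in lentivirus-circCSPP1 replicate 1. Without moderation, the kinase list had 1 called gene and the promoter factor list 0. After the loess correction the dimer partner, kinase and promoter factor lists had 6, 4 and 3. With no filter the turnover list had 1. Leaving out 1 library gave 1 to 5 called dimer partners, 0 to 5 kinases and phosphatases, 0 to 2 promoter factors and 0 to 3 turnover genes, the highest each without lentivirus-circCSPP1 replicate 1. Where a list had 0 in limma, 1 to 4 of its genes had an unadjusted p under 0.05. In the fits without 1 library, FOS ran from 0.38 to 0.78, FOSL2 from -0.43 to 0.46, JUNB from 0.018 to 0.23 and JUND from 0.36 to 1.03, none called. The cause of these shifts was not tested. FOS could not be fitted with a mean of at least 5 FPKM, which removes it, and FOSB was fitted only with no filter. FOSB, at 12 to 40 fragments, is limited by depth.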

Other observations

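For each tested subunit, the gene with a mean of at least 5 FPKM whose log2(FPKM + 1) followed it most closely over the 6 libraries was taken as a description. The libraries share their group difference, so a gene that differs between the groups will correlate with any subunit that does. FOSL1 was followed most closely by MED19, a subunit of the Mediator complex, with a Pearson r of 0.997. MED19 measured 14.66, 14.68 and 14.95 FPKM in lentivirus-NC and 18.92, 20.67 and 19.05 FPKM in lentivirus-circCSPP1. JUN was followed by TPRA1 (r = 0.999), which measured 41.4, 42.2 and 38.6 FPKM in lentivirus-NC and 100.59, 88.64 and 89.25 FPKM in lentivirus-circCSPP1. FOS was followed by TLE1 (r = 0.994), JUNB by FBXW8 (r = 0.990) and JUND by AGA (r = 0.996).

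The uneven pattern of FOSL2 had a weaker counterpart. CANT1 (r = 0.960) measured 87.2 FPKM in lentivirus-NC replicate 1 and 82.9 FPKM in lentivirus-circCSPP1 replicate 2, the libraries in which FOSL2 was high, and 66.2 to 71.7 FPKM in the others. What raises these values in 1 library of each group was not tested.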
